A study of Fukomys damarensis and Heterocephalus glaber and Cavia porcellus with 28 samples.

Results

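The genes of the proteasome, its activators, its inhibitor and its assembly chaperones were compared across 4 rodent species in heart and in liver. Members were the rows of the 2 expression tables whose mouse symbol begins with Psma, Psmb, Psmc, Psmd, Psme, Psmf or Psmg followed by a digit, which gave 46 of 13928 rows in each table. After a filter on low values, 45 of the 46 were tested in each tissue. The member left out was Psma8, the testis-type alpha subunit, with a mean of 18.3 scaled reads in mouse heart and 10.9 in mouse liver, and of 1.11 or less in the other species. One tested member, Psmc3ip, matches the naming rule but encodes a meiotic recombination factor and not a proteasome protein. Psmb8, Psmb11 and Psmg4 had no row and are not analysed here.

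Total RNA depleted of ribosomal RNA was sequenced from 28 libraries. Heart came from 3 naked mole-rats (Heterocephalus glaber), 5 Damaraland mole-rats (Fukomys damarensis), 3 guinea pigs and 3 mice, and liver from 4, 5, 3 and 2 animals of these species. No treatment separates the groups, and the guinea pig and the mouse are the outgroups. The animals differed in age as well as species: naked mole-rats were 13 to 17 months old, Damaraland mole-rats 36 to 48 months, guinea pigs 2.3 months and mice 2 months, so age and species cannot be told apart. One Damaraland animal is labelled 48 months for its heart and 36 months for its liver, so an age label may be wrong. All animals were male except for 1 female library, replicate 4 of Damaraland mole-rat liver. The labels name 18 animals, of which 10 gave both tissues.

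Values are the authors' variance-stabilised expression values, on a scale like log2 with a floor that marks 0 reads at 5.36 in heart and 4.29 in liver. A difference of 1 is close to a 2-fold change for abundant genes, but a 2-fold change from 100 reads moves the value by only 0.679 in heart and 0.801 in liver. Scaled reads are the read numbers recovered from these values, divided by the size factor of the library. They hold no correction for gene length, so the level of 1 gene was not compared with that of another, and sums over several genes were compared only between libraries. The gene models behind each species' reads are not given in the sources used here, so a difference in expression and a difference in the gene model cannot be told apart. Many proteasome genes have processed pseudogene copies, and reads shared with such copies make small differences between species uncertain. Library depth ran from 4089633 reads (naked mole-rat heart, replicate 3) to 26985779 reads in heart and from 11220505 to 21467939 in liver. A gene was called at a limma adjusted p under 0.05, adjusted over all genes tested in the tissue, and an absolute difference of at least 1.

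The proteasome degrades proteins tagged with ubiquitin. Its 20S core is a barrel of alpha rings, which gate the entrance, around beta rings, which hold the active sites encoded by Psmb5, Psmb6 and Psmb7. The 19S regulatory particle caps the core: its base holds a ring of ATPases that unfold substrates and its lid removes ubiquitin. In immune cells, and in other cells under interferon, the catalytic subunits are replaced by those encoded by Psmb8, Psmb9 and Psmb10, and the resulting immunoproteasome, often capped by the PA28 activator encoded by Psme1 and Psme2, favours peptides suited to MHC class I. Heart muscle cells hold mostly constitutive particles, while liver is known to hold mixed particles as well.

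Set against the outgroups, the mole-rats had low immunoproteasome catalytic subunits and otherwise few changes. Psmb9 and Psmb10 were lower on average in mole-rats in both tissues. Psmc5, an ATPase of the 19S base, was higher in heart, and Psmd9, a chaperone of the base, was lower in liver. No other member was called in this average contrast, which is the mean of the 2 mole-rat species minus the mean of the 2 outgroups. Thus 1 of 45 members was called higher and 2 lower in heart, where 23.4% of all genes tested were called, 10.8% higher and 12.6% lower. In liver 0 were called higher and 3 lower, where 28.1% of all genes were called, 15.1% higher and 13.0% lower. Without the size threshold, 27 members passed in heart beside 67.3% of all genes (14 higher beside 33.2%, 13 lower beside 34.2%), and 21 in liver beside 68.0% (10 higher beside 35.4%, 11 lower beside 32.6%). The requirement of a call in all 4 contrasts of a mole-rat with an outgroup left only Psmb10, lower, in heart, where 4.68% of genes were called in this way (2.06% higher, 2.62% lower). In liver it also left only Psmb10, lower, where the share was 6.29% (3.42% higher, 2.87% lower). Without the size threshold, 7 members passed in both mole-rats in heart, beside 14.8% of genes, and 2 in liver, beside 15.9%. The 7 in heart were Psmc2, Psmc5, Psmd13 and Psmg3, higher, and Psma6, Psmb9 and Psmb10, lower, and the 2 in liver were Psmb9 and Psmb10, lower.

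**Figure D1:**
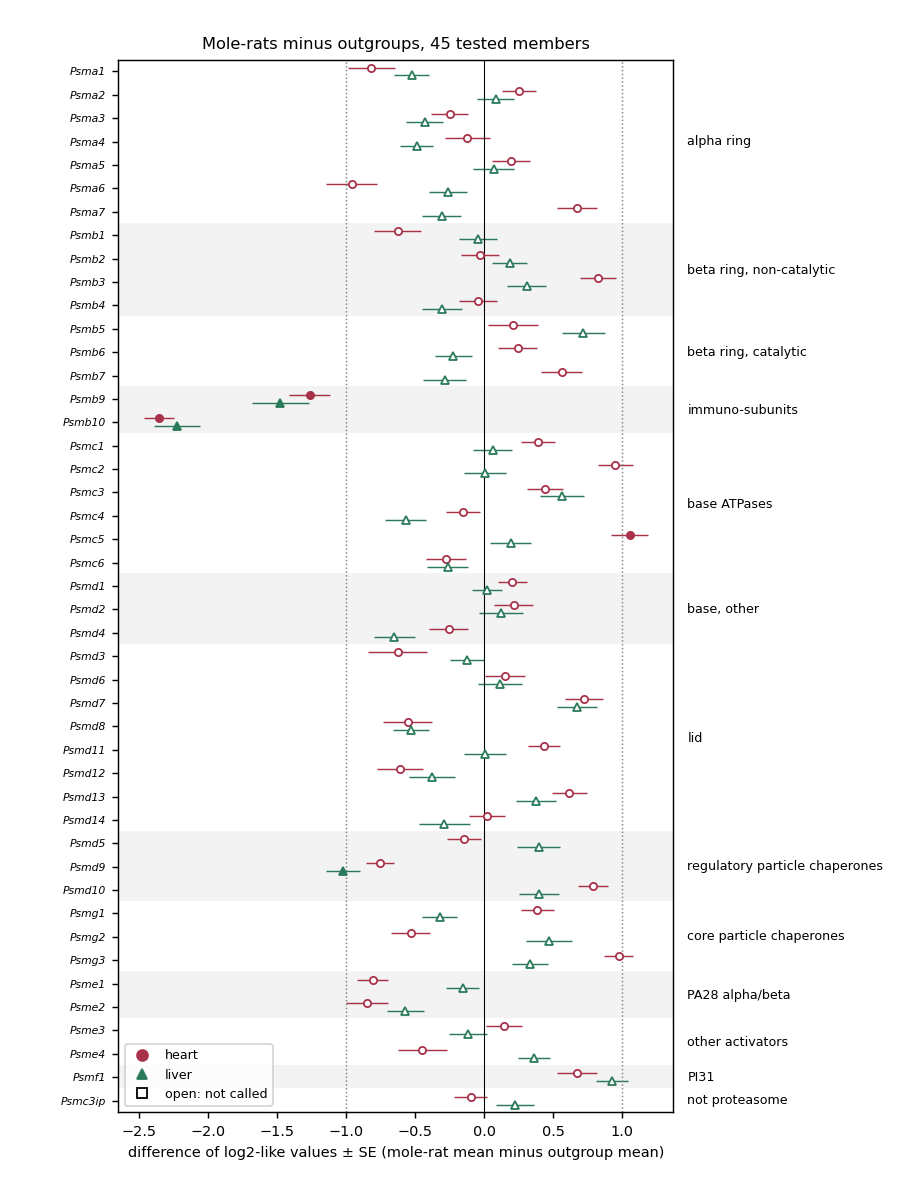
Difference between the mole-rat mean and the outgroup mean for the 45 tested members, by role in the particle (horizontal axis: difference of log2-like values with its standard error; circles heart, triangles liver; filled symbols were called; dotted lines mark the size threshold of 1). Psmb10 stands farthest from 0, at -2.36 in heart and -2.22 in liver, while the constitutive subunits lie on both sides of 0.

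The constitutive particle varied less between species than genes did in general. For the 31 tested genes of the constitutive core and regulatory particle, the median distance between the highest and the lowest species mean was 0.90 in heart and 0.63 in liver, beside 1.41 and 1.58 for all genes tested. The median absolute average contrast of these 31 genes was 0.39 in heart and 0.29 in liver, beside 0.53 and 0.58 for all genes. These are descriptions of the genes in these libraries, and the proteasome genes are abundant ones, whose values vary less between libraries than those of rare genes. Recovered reads of all members together took 0.309 to 0.332% of the reads of mouse hearts, 0.336 to 0.358% of naked mole-rat hearts, 0.412 to 0.487% of guinea pig hearts and 0.499 to 0.601% of Damaraland mole-rat hearts. In heart these ranges did not overlap between any pair of species, but a share of reads also depends on the reads that other genes take. On the log2-like scale, the heart medians of the 31 constitutive genes did overlap in part. They were 10.20 to 10.35 in naked mole-rats, 10.31 to 10.41 in mice, 10.41 to 10.65 in guinea pigs and 10.51 to 10.90 in Damaraland mole-rats. In liver the shares of reads were 0.314 to 0.379% in the naked mole-rat, 0.361 to 0.537% in the Damaraland mole-rat, 0.411 to 0.449% in the guinea pig and 0.440 to 0.473% in the mouse, with overlap.

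Among the alpha ring genes, which encode the subunits that gate the core, 0 of 7 tested were called in the average contrast in either tissue. An unadjusted limma p under 0.05 was found for 1 higher and 2 lower in heart and for 0 higher and 4 lower in liver, and voom on the recovered reads called 0 in both tissues. Psma6 had the lowest average contrast of the ring in heart. Its heart values were 9.66, 9.34 and 9.95 in naked mole-rats, 10.24, 10.11, 10.01, 9.42 and 9.11 in Damaraland mole-rats, 10.41, 11.24 and 10.71 in guinea pigs and 10.56, 10.61 and 10.51 in mice. Every mole-rat heart lay below every outgroup heart, by 0.96 on average (SE 0.19, limma adjusted p = 0.000234), a difference under the size threshold. In liver the Psma6 libraries of mole-rats and outgroups overlapped and the average contrast was -0.26 (SE 0.14, limma adjusted p = 0.107). Between guinea pig and mouse, Psma4 was called lower in guinea pig liver (9.55 ± 0.13, SD, n = 3) than in mouse liver (10.63 ± 0.39, n = 2). Psma4 was also lower in Damaraland than in mouse liver (-1.22, SE 0.18, limma adjusted p = 1.43e-05). Psma7 was lower in Damaraland than in guinea pig liver (-1.18, SE 0.18, limma adjusted p = 2.42e-05). Both of these differences met the rule for a call.

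The catalytic genes of the constitutive core were not called in the average contrast of mole-rats and outgroups in either tissue. Psmb5 carries the chymotrypsin-like site. Its heart means were 10.79 ± 0.10 in naked mole-rats (SD, n = 3), 11.54 ± 0.45 in Damaraland mole-rats (n = 5), 11.15 ± 0.49 in guinea pigs (n = 3) and 10.77 ± 0.05 in mice (n = 3), and its average contrast was 0.21 (SE 0.18, limma adjusted p = 0.309). In liver Psmb5 had 11.58 ± 0.34 (n = 4), 11.34 ± 0.29 (n = 5), 10.59 ± 0.31 (n = 3) and 10.89 ± 0.06 (n = 2) in the same order, a contrast of 0.72 (SE 0.16, limma adjusted p = 0.000637) that stayed under the size threshold. Psmb5 is thus among the 5 members with the largest average contrast in liver without reaching a call.

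Psmb6 carries the caspase-like site and Psmb7 the trypsin-like site. Psmb6 in heart had means of 10.30 ± 0.04 in naked mole-rats, 11.20 ± 0.39 in Damaraland mole-rats, 10.22 ± 0.19 in guinea pigs and 10.79 ± 0.03 in mice, with an average contrast of 0.24 (SE 0.14). In liver Psmb6 had 10.11 ± 0.17, 10.74 ± 0.27, 10.13 ± 0.26 and 11.18 ± 0.19, with an average contrast of -0.22 (SE 0.14). It was called lower in guinea pig than in mouse liver (-1.05, SE 0.22, limma adjusted p = 0.000545). Naked mole-rat liver was also lower than mouse liver by the same rule (-1.06, SE 0.21, limma adjusted p = 0.000247). Psmb7 had heart means of 11.65 ± 0.30, 11.33 ± 0.26, 10.66 ± 0.41 and 11.19 ± 0.06 and liver means of 11.25 ± 0.31, 10.62 ± 0.23, 11.06 ± 0.30 and 11.39 ± 0.38. Its average contrasts of 0.56 in heart and -0.29 in liver were of opposite sign and were not called. In no catalytic gene did the mole-rat libraries separate fully from the outgroup libraries.

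Psmb10, which replaces Psmb7 in the immunoproteasome, was the member with the widest spread between species in both tissues. In heart its values were 6.18, 6.18 and 6.48 in naked mole-rats, 7.30, 7.42, 7.42, 7.54 and 7.69 in Damaraland mole-rats, 8.92, 9.07 and 9.39 in guinea pigs and 9.23, 9.31 and 9.49 in mice. Every naked mole-rat heart lay below every Damaraland heart, and every Damaraland heart below every outgroup heart. Mean scaled reads were 17.7 in the naked mole-rat, 106 in the Damaraland mole-rat, 485 in the guinea pig and 573 in the mouse, a ratio of 32.4 between the highest and the lowest species. The average contrast was -2.36 (SE 0.11, limma adjusted p = 2.67e-11), and the naked mole-rat was also lower than the Damaraland mole-rat, by -1.19 (SE 0.15, limma adjusted p = 3.25e-06). The guinea pig and the mouse did not differ beyond their spread (-0.22, SE 0.17, limma adjusted p = 0.268).

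In liver the order of the mole-rats was the other way round. Psmb10 had 7.20, 7.34, 6.95 and 7.94 in naked mole-rats, 5.73, 5.99, 6.25, 5.99 and 6.60 in Damaraland mole-rats, 8.37, 8.52 and 8.39 in guinea pigs and 9.35 and 9.63 in mice. Again no mole-rat library reached an outgroup library, but every naked mole-rat liver lay above every Damaraland liver. Mean scaled reads were 133, 37.2, 306 and 684 in that order of species. The average contrast was -2.22 (SE 0.17, limma adjusted p = 3.67e-09), the naked mole-rat exceeded the Damaraland mole-rat by 1.24 (SE 0.20, limma adjusted p = 2.95e-05), and the guinea pig was lower than the mouse by -1.06 (SE 0.27, limma adjusted p = 0.00274). Without replicate 3 of naked mole-rat liver, Psmb10 no longer passed all 4 mole-rat contrasts in liver, and 0 members were then called in both mole-rats.

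Psmb9, which replaces Psmb6, was lower in mole-rats with less separation. In heart its values were 6.54, 6.93 and 6.31 in naked mole-rats, 6.65, 7.25, 7.18, 6.60 and 7.39 in Damaraland mole-rats, 8.44, 8.55 and 8.78 in guinea pigs and 7.48, 7.50 and 7.67 in mice. All mole-rat hearts lay below all outgroup hearts, the nearest being 7.39 in a Damaraland mole-rat and 7.48 in a mouse. The average contrast was -1.27 (SE 0.15, limma adjusted p = 1.12e-06), and the guinea pig stood above each of the other species by 1.04 to 1.99. In heart the naked and Damaraland mole-rats did not pass the test against each other (-0.42, SE 0.20, limma adjusted p = 0.0739).

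In liver Psmb9 had 7.05, 8.55, 7.29 and 7.88 in naked mole-rats, 6.50, 6.61, 6.40, 6.48 and 6.86 in Damaraland mole-rats, 8.64, 8.27 and 9.06 in guinea pigs and 8.70 and 8.43 in mice. Replicate 2 of the naked mole-rat livers reached the outgroup range, and the other mole-rat livers did not. The average contrast was -1.48 (SE 0.21, limma adjusted p = 7.2e-06), and the Damaraland mole-rat was lower than each other species, by 1.12 to 2.08 in size. Without replicate 2 of naked mole-rat liver, the difference between naked and Damaraland mole-rats was 0.84 and no longer called, and Psmb9 was then called lower in both mole-rats.

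**Figure D2:**
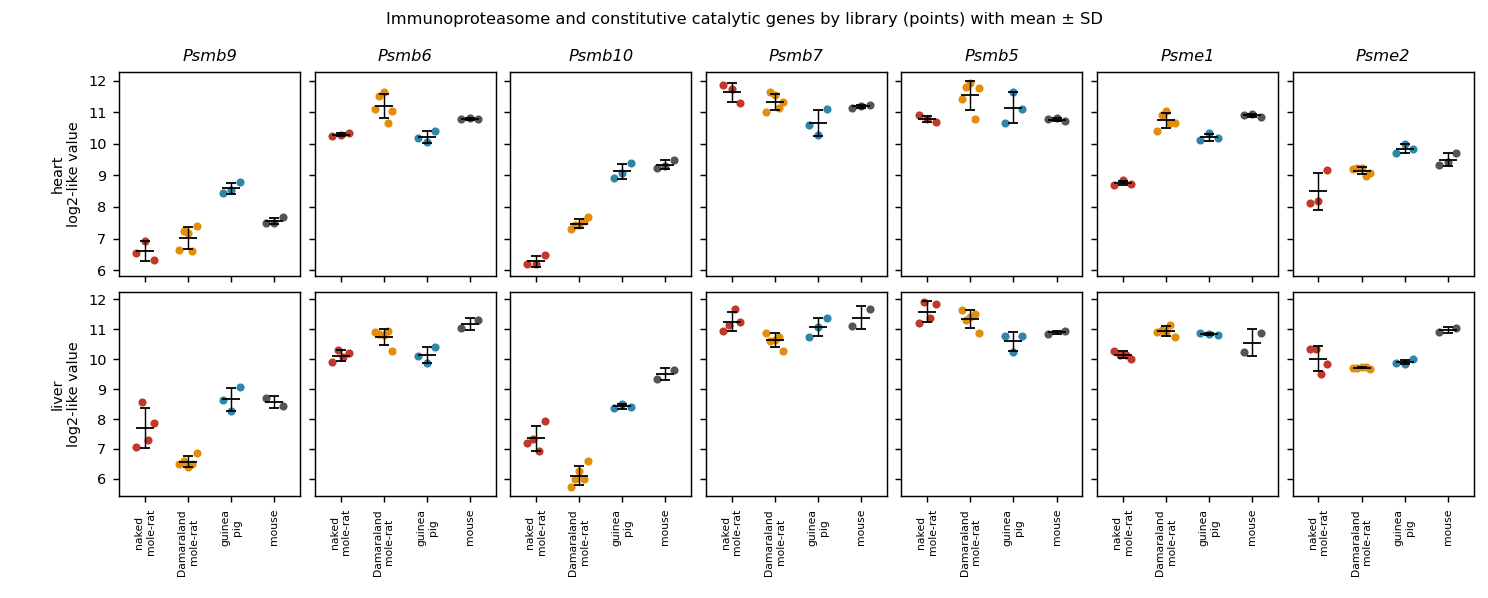
Log2-like values of the immunoproteasome genes Psmb9, Psmb10, Psme1 and Psme2 and of the constitutive catalytic genes Psmb5, Psmb6 and Psmb7 in each library (points; bars give the mean and SD of each species; upper row heart, lower row liver). Psmb10 of every mole-rat library lies below every outgroup library in both tissues, and the mole-rats change order between heart and liver.

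The difference between an immuno-subunit and the constitutive subunit it replaces was taken within each library. Psmb10 minus Psmb7 in heart ran from -5.70 to -4.83 in naked mole-rats, from -4.21 to -3.58 in Damaraland mole-rats, from -1.71 to -1.21 in guinea pigs and from -1.89 to -1.75 in mice. In liver it ran from -4.72 to -3.32, from -5.15 to -3.66, from -2.97 to -2.38 and from -2.03 to -1.77 in the same order. In both tissues the highest mole-rat library was below the lowest outgroup library. Psmb9 minus Psmb6 in heart ran from -4.03 to -3.34 in naked mole-rats, from -4.47 to -3.65 in Damaraland mole-rats, from -1.74 to -1.50 in guinea pigs and from -3.32 to -3.11 in mice, so that the mouse libraries lay close to the naked mole-rat ones. In liver it ran from -2.85 to -1.75 in naked mole-rats, from -4.44 to -3.41 in Damaraland mole-rats, from -1.60 to -1.34 in guinea pigs and from -2.88 to -2.34 in mice. These differences carry each gene's own length and are given for their order between species only.

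Immune cells carry much of a tissue's immunoproteasome, so leukocyte markers are given beside these genes. In bulk tissue, fewer cells of a type and less RNA per cell cannot be told apart. Of 15 leukocyte markers listed, 11 were in the tables, and their summed scaled reads in heart were 888 to 2041 in naked mole-rats, 1789 to 3111 in Damaraland mole-rats, 7304 to 10404 in guinea pigs and 3534 to 4461 in mice. The heart sums of both mole-rats lay below those of both outgroups, as did Psmb10, but Cd74 made up most of the guinea pig sum, with 5262 to 8135 scaled reads beside 151 to 240 in Damaraland mole-rats. Without Cd74 the sums of the other 10 markers were 831 to 1756 in naked mole-rats, 1638 to 2900 in Damaraland mole-rats, 1626 to 2269 in guinea pigs and 2082 to 2801 in mice, so the Damaraland hearts overlapped both outgroups. Cd79a, a B cell marker, was at 0 in at least 1 naked mole-rat heart and Cd3e, a T cell marker, in at least 1 Damaraland heart. For Cd79a, every Damaraland heart (40.8 to 128 scaled reads) lay above every outgroup heart (3.89 to 23.9). Every naked mole-rat heart (0 to 2.54) lay below them. Cd3e had 26.6 scaled reads or less in every heart, and mouse hearts (0.802 to 2.65) overlapped Damaraland hearts (0 to 2.58). In liver the sums were 6047 to 11526 in naked mole-rats, 3182 to 5539 in Damaraland mole-rats, 7554 to 12461 in guinea pigs and 2817 to 3009 in mice, and Cd3e was at 0 in at least 1 naked mole-rat liver. Among the mole-rats and the mouse, the order of these liver sums rested on Cd14, a monocyte and macrophage receptor. It had 3283 to 5250 scaled reads in naked mole-rats, 815 to 1243 in Damaraland mole-rats and 20.1 to 30.4 in mice. Without Cd14 the sums were 2763 to 6276 in naked mole-rats, 2367 to 4427 in Damaraland mole-rats, 6297 to 10500.2 in guinea pigs and 2786 to 2989 in mice. The mole-rats thus overlapped each other and the mouse, while every guinea pig liver lay above all others. Between the mole-rats in liver, Cd14, C1qb and Cd74 were called higher and Cd68, a macrophage marker, lower in the naked mole-rat. Those are 3 higher and 1 lower of 11 tested, beside 16.6% and 17.6% of all genes. In heart 0 of 9 tested were called higher and 3 lower in the naked mole-rat (C1qb, C1qc and Tyrobp), beside 14.2% and 15.2%. Voom on the recovered reads called 0 higher and 5 lower in heart and 2 higher and 2 lower in liver. These sums without 1 marker were added after the values were seen. Of the tested markers in the average contrast, 0 of 9 were higher and 2 lower in heart, beside 10.8% and 12.6% of all genes. The 2 were C1qb, a complement gene of macrophages, and Cd74, the MHC class II chaperone. In liver 1 of 11 was higher (Cd14) and 3 lower (Cd3e, Cd79a and Cd74), beside 15.1% and 13.0%. C1qb in heart and Cd14 in liver were called in the naked mole-rat alone. For Cd3e and Cd79a the lower calls rested on the guinea pig. Cd3e was at 10.12 to 10.67 in guinea pig livers and at 4.90 and 5.15 in mouse livers, within the mole-rat range of 4.29 to 5.73. Mouse Cd79a (5.21 and 4.91) lay below every mole-rat liver. Cd74 was called lower in Damaraland liver alone, and mouse livers (9.69 and 9.22) lay within the naked mole-rat range. Only Cd74 in heart was called in both mole-rats, with 7.85 ± 0.79 in naked mole-rats, 8.13 ± 0.19 in Damaraland mole-rats, 12.75 ± 0.32 in guinea pigs and 10.57 ± 0.25 in mice. Ptprc, the pan-leukocyte antigen CD45, had 44.4, 107, 130 and 216 mean scaled reads in heart and 133, 156, 260 and 148 in liver of naked mole-rat, Damaraland mole-rat, guinea pig and mouse. The part of immune cells in the Psmb9 and Psmb10 differences was not tested.

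The genes that use the peptides of the immunoproteasome were lower in mole-rat liver in part. Of 10 antigen presentation genes tested, 0 were higher and 4 lower in the average contrast in liver, beside 15.1% and 13.0% of all genes. In heart 0 were higher and 1 lower, beside 10.8% and 12.6%. Tap1, a subunit of the peptide transporter, had liver means of 7.47 ± 0.12 in naked mole-rats, 7.16 ± 0.32 in Damaraland mole-rats, 9.11 ± 0.09 in guinea pigs and 9.46 ± 0.05 in mice and was called in both mole-rats. Erap1, which trims peptides, had 8.31 ± 0.11, 9.38 ± 0.11, 10.58 ± 0.15 and 11.35 ± 0.40 in liver and was also called in both mole-rats. Tapbp, encoding the loading factor tapasin, was lower in the average contrast in both tissues (-1.94, SE 0.13, in heart and -2.18, SE 0.16, in liver), and Tap2, the other transporter subunit, was called in liver only (-1.17, SE 0.14). Between the mole-rats, 0 of the 10 were called higher and 2 lower in naked mole-rat liver (Tapbp and Erap1), beside 16.6% and 17.6% of all genes. In naked mole-rat heart 0 were higher and 2 lower (Tap2 and Tapbp), beside 14.2% and 15.2%. Irf1, an interferon-response factor that acts on immunoproteasome genes, had average contrasts of 0.03 (SE 0.17) in heart and 0.04 (SE 0.17) in liver, neither of which was called.

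Psme1 and Psme2 encode the alpha and beta subunits of PA28, the activator ring that caps immunoproteasomes. Psme1 in heart had 8.71, 8.85 and 8.72 in naked mole-rats, 10.42, 10.93, 11.05, 10.68 and 10.65 in Damaraland mole-rats, 10.12, 10.34 and 10.18 in guinea pigs and 10.92, 10.95 and 10.86 in mice. The naked mole-rat hearts stood apart from all others and were lower than each other species by 1.45 to 2.15 in size (largest limma adjusted p = 1.37e-06), so this was a feature of 1 mole-rat and the average contrast of -0.81 was not called. In liver Psme1 of the naked mole-rat had 10.28, 10.15, 10.14 and 9.99 beside 10.90, 10.99, 10.90, 11.15 and 10.73 in Damaraland mole-rats, a difference of -0.79 (SE 0.14, limma adjusted p = 9.5e-05) under the size threshold. Guinea pig livers had 10.86, 10.85 and 10.80 and mouse livers 10.23 and 10.87.

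Psme2 followed another order. Its heart values were 8.13, 8.19 and 9.18 in naked mole-rats, 9.21, 9.24, 9.24, 8.98 and 9.08 in Damaraland mole-rats, 9.71, 10.00 and 9.85 in guinea pigs and 9.32, 9.44 and 9.72 in mice. All mole-rat hearts lay below all outgroup hearts (-0.85, SE 0.15, limma adjusted p = 0.000108, not called), and replicate 3 of the naked mole-rat, the shallowest library, was about 1 above the other naked mole-rat hearts. In liver the mouse was highest, with 10.89 and 11.04 beside means of 10.01 ± 0.42 in naked mole-rats, 9.72 ± 0.03 in Damaraland mole-rats and 9.90 ± 0.08 in guinea pigs. Guinea pig liver was lower than mouse liver by -1.06 (SE 0.22, limma adjusted p = 0.000473).

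Psme3 encodes PA28 gamma, a nuclear relative of these activators that is not part of the immunoproteasome. It was not called in any comparison, with heart means from 9.80 ± 0.23 in guinea pigs to 10.37 ± 0.28 in Damaraland mole-rats and liver means from 9.64 ± 0.26 in naked mole-rats to 9.86 ± 0.26 in mice. Within libraries, Psme1 minus Psme3 in heart ran from -1.40 to -0.97 in naked mole-rats and from 0.07 to 0.82 in the other heart libraries. In liver it ran from 0.10 to 0.87 in naked mole-rats and from 0.55 to 1.57 in the other species. This difference carries each gene's own length and is given for its order between species only.

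Psme4 encodes PA200, a large activator of the 20S core linked to histone turnover. In heart its values were 11.62, 11.17 and 11.94 in naked mole-rats, 11.92, 11.94, 12.05, 12.55 and 11.24 in Damaraland mole-rats, 11.13, 10.85 and 11.17 in guinea pigs and 13.35, 13.39 and 13.34 in mice. The mouse hearts were higher than each other species by 1.42 to 2.31 (largest limma adjusted p = 4.74e-05), a ratio of 5.10 in scaled reads to the guinea pig. In liver the Damaraland mole-rat was highest, with 12.20, 11.79, 11.99, 11.91 and 11.76 beside 10.76, 10.72, 10.95 and 10.55 in naked mole-rats, 10.37, 10.47 and 10.58 in guinea pigs and 11.67 and 11.28 in mice. Naked mole-rat liver was lower than Damaraland liver by -1.19 (SE 0.14, limma adjusted p = 8.97e-07), and guinea pig liver was lower than mouse liver by -1.003 (SE 0.19, limma adjusted p = 0.000228).

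Psmf1 encodes PI31, a protein that binds the 20S core, inhibits it in the test tube and takes part in proteasome transport and assembly. It was highest in the naked mole-rat in both tissues. Heart values were 9.93, 9.80 and 10.33 in naked mole-rats, 9.39, 9.03, 9.08, 8.73 and 8.59 in Damaraland mole-rats, 9.39, 8.79 and 8.94 in guinea pigs and 8.75, 8.59 and 8.45 in mice, so every naked mole-rat heart lay above every other heart. The difference from the Damaraland mole-rat was 1.06 (SE 0.20, limma adjusted p = 0.000181), and it stood at 0.9998 without replicate 4 and 0.97 without replicate 5 of the Damaraland hearts and at 0.91 without replicate 3 of the naked mole-rat hearts. In liver the naked mole-rat had 10.65, 10.56, 10.23 and 10.72, the Damaraland mole-rat 9.54, 9.52, 9.48, 9.51 and 9.38, the guinea pig 9.45, 8.95 and 9.33 and the mouse 8.91 and 8.94. Again no other library reached the lowest naked mole-rat liver, and Psmf1 was called in this species alone, by 1.05 to 1.61 (largest limma adjusted p = 2.71e-06). Without replicate 4 of naked mole-rat liver, the difference from the Damaraland mole-rat was 0.99 and the call ended.

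Assembly of the base of the 19S particle is aided by chaperones encoded by Psmd5, Psmd9 and Psmd10, which hold the ATPases and leave before the particle is complete. Psmd9 was low in the naked mole-rat alone in both tissues. Its heart values were 6.52, 6.31 and 6.40 in naked mole-rats, 8.87, 9.10, 8.75, 8.96 and 9.17 in Damaraland mole-rats, 8.33, 8.43 and 8.58 in guinea pigs and 8.36, 8.39 and 8.56 in mice. Mean scaled reads were 22.8 in naked mole-rat heart and 425, 273 and 270 in the other species, a ratio of 18.7 between Damaraland and naked mole-rats, and the gene lay 2.56 lower in the naked than in the Damaraland mole-rat (-2.56, SE 0.14, limma adjusted p = 1.21e-10). In liver the naked mole-rat had 7.02, 6.84, 7.07 and 7.36, the Damaraland mole-rat 9.60, 9.34, 9.33, 9.45 and 9.60, the guinea pig 9.17, 9.71 and 9.58 and the mouse 9.15 and 9.04. No naked mole-rat library came within 1 of any other library in either tissue. The liver difference from the Damaraland mole-rat was -2.39 (SE 0.15, limma adjusted p = 2.09e-10), with 99.6 mean scaled reads in the naked mole-rat beside 671, 688 and 510 in the other species. The liver average contrast of -1.02 (SE 0.12) is therefore carried by 1 mole-rat, since the Damaraland mole-rat differed from the guinea pig by -0.02 and from the mouse by 0.37.

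Psmd10, which encodes gankyrin, was high in Damaraland mole-rat heart. Its heart values were 7.40, 7.82 and 7.61 in naked mole-rats, 9.87, 9.85, 10.14, 9.70 and 9.80 in Damaraland mole-rats, 8.17, 8.25 and 8.20 in guinea pigs and 7.56, 7.78 and 7.77 in mice. The Damaraland hearts exceeded each other species by 1.67 to 2.26 (largest limma adjusted p = 3.24e-08), with 863 mean scaled reads beside 123 in naked mole-rats, 219 in guinea pigs and 135 in mice. In liver they were also highest, at 8.46, 8.66, 8.67, 8.61 and 8.25, beside 7.31, 7.33, 7.89 and 7.85 in naked mole-rats, 7.10, 7.24 and 7.64 in guinea pigs and 7.84 and 8.15 in mice, but the differences from the naked mole-rat (-0.93 as naked minus Damaraland, SE 0.17, limma adjusted p = 0.000111) and from the mouse (0.53) were under the size threshold. Psmd5, the third of these chaperones, was not called in any of these comparisons: its heart means were 8.31 ± 0.22, 9.01 ± 0.17, 9.26 ± 0.31 and 8.36 ± 0.14 and its liver means 9.59 ± 0.22, 9.68 ± 0.28, 9.32 ± 0.37 and 9.16 ± 0.37 in naked mole-rat, Damaraland mole-rat, guinea pig and mouse.

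Psmg1 and Psmg2 encode the dimer that guides assembly of the alpha ring, and Psmg3 encodes a member of a further chaperone pair. Psmg1 was lower in naked than in Damaraland mole-rats in both tissues. Its heart values were 8.75, 8.33 and 8.49 in naked mole-rats, 9.75, 10.11, 10.07, 9.46 and 10.01 in Damaraland mole-rats, 9.39, 9.57 and 9.39 in guinea pigs and 8.24, 8.09 and 8.20 in mice. The mice, not the naked mole-rats, were lowest, and guinea pig hearts exceeded mouse hearts by 1.27 (SE 0.18, limma adjusted p = 1.47e-05). Naked minus Damaraland mole-rat was -1.36 (SE 0.16, limma adjusted p = 1.98e-06) in heart and -1.08 (SE 0.15, limma adjusted p = 6.88e-06) in liver, where the naked mole-rat had 7.77, 8.24, 7.73 and 7.69 and the Damaraland mole-rats lay between 8.71 and 9.05.

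Psmg2, the partner of Psmg1, was not called in the average contrast, between the mole-rats, between guinea pig and mouse or in 1 species alone. Naked minus Damaraland differences were -0.84 (SE 0.19) in heart and -0.30 (SE 0.20) in liver. The naked mole-rat and mouse heart means, the lowest and the highest, lay 1.19 apart, over the size threshold. Its heart means were 7.22 ± 0.27 in naked mole-rats, 8.06 ± 0.36 in Damaraland mole-rats, 7.94 ± 0.17 in guinea pigs and 8.41 ± 0.07 in mice, and its liver means 7.74 ± 0.50, 8.04 ± 0.17, 7.41 ± 0.29 and 7.43 ± 0.16. Psmg3 showed the opposite order to Psmg1 within the mole-rats: its heart values were 8.53, 8.34 and 8.38 in naked mole-rats, 7.98, 8.10, 8.03, 7.73 and 7.73 in Damaraland mole-rats, 7.18, 7.44 and 7.58 in guinea pigs and 7.01, 6.94 and 6.99 in mice. The 4 species formed a series without overlap in heart, and the average contrast of 0.98 (SE 0.11, limma adjusted p = 4.8e-07) fell just short of the size threshold. In liver the Psmg3 contrast was 0.33 (SE 0.13), with naked mole-rat livers at 8.19 ± 0.25 and the other species between 7.53 and 7.67 on average.

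**Figure D3:**
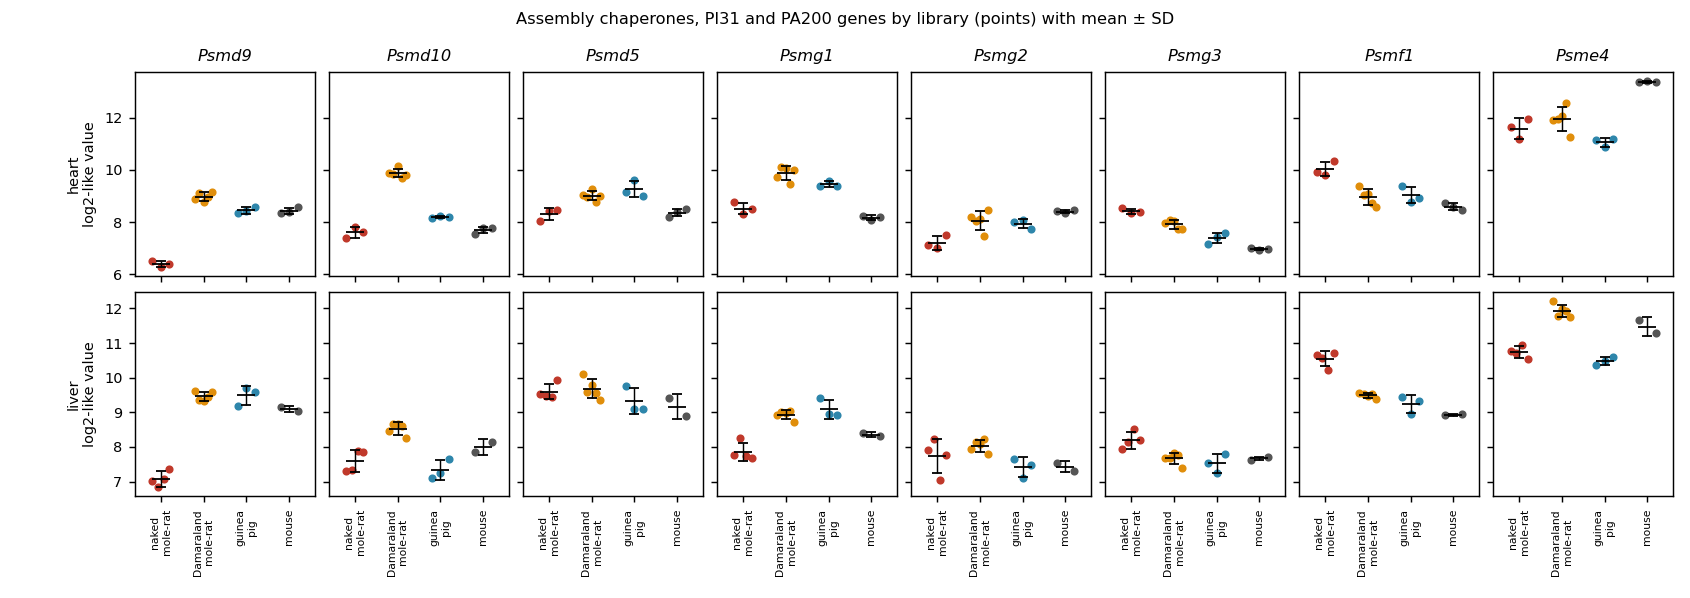
Log2-like values of the base chaperones Psmd9, Psmd10 and Psmd5, the core chaperones Psmg1 to Psmg3, the PI31 gene Psmf1 and the PA200 gene Psme4 in each library (points; bars give the mean and SD of each species; upper row heart, lower row liver). The naked mole-rat libraries are lowest for Psmd9 and highest for Psmf1 in both tissues, and Damaraland mole-rat hearts are highest for Psmd10.

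In the 19S particle itself, the ATPase genes Psmc5 and Psmc2 were high in mole-rat heart. Psmc5 had heart values of 11.60, 11.47 and 11.40 in naked mole-rats, 11.36, 12.01, 12.06, 11.52 and 11.53 in Damaraland mole-rats, 10.71, 10.73 and 11.19 in guinea pigs and 10.20, 10.14 and 10.26 in mice. Every mole-rat heart exceeded every outgroup heart and the average contrast was 1.05 (SE 0.13, limma adjusted p = 3.24e-06), although the difference of either mole-rat from the guinea pig was under 1. Psmc2 had heart values of 11.63, 11.72 and 11.16 in naked mole-rats, 11.36, 11.63, 11.52, 11.32 and 11.06 in Damaraland mole-rats, 10.28, 10.50 and 10.62 in guinea pigs and 10.48, 10.53 and 10.52 in mice, again without overlap (0.95, SE 0.12, limma adjusted p = 4.2e-06, not called). In liver neither separated, with average contrasts of 0.19 (SE 0.15) for Psmc5 and 0.01 (SE 0.15) for Psmc2. Psmd11, a lid subunit with a part in assembly of the 26S particle, was not called in any of these comparisons. Its heart means were 10.87 ± 0.37 in naked mole-rats, 10.51 ± 0.08 in Damaraland mole-rats, 9.97 ± 0.09 in guinea pigs and 10.53 ± 0.08 in mice, and its liver means 10.77 ± 0.10, 10.58 ± 0.36, 10.51 ± 0.08 and 10.84 ± 0.50. Counting all members, 5 had every mole-rat heart above every outgroup heart (Psmc2, Psmc5, Psmd7, Psmd13 and Psmg3), beside 7.57% of all genes, and 4 had every mole-rat heart below (Psma6, Psmb9, Psmb10 and Psme2), beside 7.59%. In liver the counts were 0, beside 8.74%, and 1 (Psmb10), beside 7.37%.

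The 2 mole-rats differed from each other at more members than they differed jointly from the outgroups, but so they did over all genes tested. Of all genes, 29.4% were called between the mole-rats in heart and 34.2% in liver, beside 4.68% and 6.29% called in both mole-rats against the outgroups. A joint call also has to pass more contrasts, so this order is not particular to the proteasome genes. In heart the differences of members between the mole-rats lay mostly in 1 direction. Naked mole-rat heart was called higher for 1 member and lower for 10 of 45, beside 14.2% and 15.2% of all genes tested, or 29.4% in either direction. The higher member was Psmf1. The lower ones were the core genes Psmb3 and Psmb4, the immuno-subunit Psmb10, the base genes Psmc3 and Psmd4, the lid gene Psmd6, the chaperones Psmd9, Psmd10 and Psmg1, and the PA28 gene Psme1. Over all 45 members the median difference was -0.40 with 38 below 0 and 7 above, while over all genes tested it was -0.00. With no size threshold, 2 members passed higher and 21 lower, beside 31.0% and 31.5% of all genes, or 62.4% in either direction. Every naked mole-rat heart lay below every Damaraland heart for 15 members, beside 26.4% of genes, and above for 2, beside 25.4%.

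Psmb3, a non-catalytic beta subunit, was high in Damaraland mole-rat heart: 11.27, 11.81, 11.69, 11.29 and 11.46, beside 9.91, 9.90 and 10.27 in naked mole-rats, 9.83, 10.08 and 9.44 in guinea pigs and 10.13, 10.16 and 10.00 in mice. The Damaraland mole-rat exceeded each other species by 1.41 to 1.72 (largest limma adjusted p = 2.43e-06). Psmc3, an ATPase of the base, had 11.77, 12.46, 12.35, 11.84 and 12.24 in Damaraland hearts, 10.90, 10.93 and 10.53 in naked mole-rats, 10.89 to 11.05 in guinea pigs and 10.98, 11.07 and 11.13 in mice, and exceeded each other species by 1.07 to 1.35 (largest limma adjusted p = 4.11e-05). Without replicate 2 of the Damaraland hearts, Psmc3 was no longer called in this species alone. In liver, naked minus Damaraland mole-rat was -1.10 (SE 0.17, limma adjusted p = 1.99e-05) for Psmb3 and 0.10 (SE 0.19) for Psmc3. Psmd4, the base's ubiquitin receptor, had heart means of 9.64 ± 0.04 in naked mole-rats, 11.10 ± 0.41 in Damaraland mole-rats, 11.13 ± 0.14 in guinea pigs and 10.13 ± 0.06 in mice. Psmd6, a lid subunit, and Psmb4, a non-catalytic beta subunit, were lower in naked than in Damaraland hearts by -1.31 (SE 0.20) and -1.10 (SE 0.18). The Psmb4 difference was -0.97 without replicate 3 of the naked mole-rat hearts and then ended as a call.

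By the rule of a call against each of the other species, 3 members were lower in naked mole-rat heart alone (Psmb10, Psmd9 and Psme1), beside 4.14% of all genes tested, and 3 were higher in Damaraland mole-rat heart alone (Psmb3, Psmc3 and Psmd10), beside 3.86%. No member was higher in naked mole-rat heart alone, beside 4.87%, and none was lower in Damaraland heart alone, beside 2.90%. By an unadjusted limma p under 0.05 in each contrast these counts were 2 and 0, and voom called 0 in both cases. In either direction the shares of all genes were 9.02% for the naked and 6.76% for the Damaraland mole-rat. With no size threshold, 10 members passed in naked mole-rat heart alone, beside 23.4% of genes, and 7 in Damaraland heart alone, beside 19.6%. The naked mole-rat hearts also held more liver transcripts than the others: the summed scaled reads of 4 hepatocyte genes (Alb, Ttr, Fgb and Cps1) were 10707 to 30684 in naked mole-rats, 1762 to 5137 in Damaraland mole-rats, 420 to 1953 in guinea pigs and 322 to 1131 in mice. The part of such transcripts in the heart differences was not tested. For Psmb3, Psmd9, Psmf1 and Psmg1 the same direction between the mole-rats was called within liver, and Psmb10 was called in the opposite direction there. The 5 cardiomyocyte genes listed were abundant in every heart library, with sums of 410790 to 846133 scaled reads in naked mole-rats, 1191740 to 1611930 in Damaraland mole-rats, 732821 to 841087 in guinea pigs and 1818460 to 2192590 in mice. Every naked mole-rat heart thus lay below every Damaraland heart in this sum, and Myh6 and Ttn, a myosin heavy chain and titin, were called lower and Ryr2, a calcium release channel, higher in the naked mole-rat. The part of this difference in the heart results was not tested. The hepatocyte sums in liver ran from 878894 to 2872500, so each tissue carried its defining markers.

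In liver the naked mole-rat was called higher for 3 members (Psmb9, Psmb10 and Psmf1) and lower for 4 (Psmb3, Psmd9, Psme4 and Psmg1) against the Damaraland mole-rat, beside 16.6% and 17.6% of all genes tested, or 34.2% in either direction. With no size threshold 23 members passed, beside 67.7% of genes. The median difference over the 45 members was -0.08 with 20 above 0 and 25 below. In naked mole-rat liver alone, 1 member was higher (Psmf1) and 1 lower (Psmd9), beside 5.83% and 4.45% of genes, or 10.3% in either direction. In Damaraland liver alone, 0 were higher, beside 5.51%, and 2 lower (Psmb9 and Psmb10), beside 3.30%, or 8.81% in either direction. With no size threshold these counts were 7 for the naked mole-rat, beside 24.5% of genes, and 5 for the Damaraland mole-rat, beside 21.5%. Replicate 5 of the Damaraland livers stood low across the core and regulatory particle, with a median of 9.97 over the 31 constitutive genes beside 10.39 to 10.74 in the other Damaraland livers. Without it, 8 members were called between naked and Damaraland mole-rat liver (3 higher, 5 lower) in place of 7. Of the members called between the mole-rats, 4 had the same direction in both tissues (Psmb3, Psmd9, Psmf1 and Psmg1), which is 36.4% of those called in heart and 57.1% of those called in liver, and 1 had opposite directions (Psmb10).

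**Figure D4:**
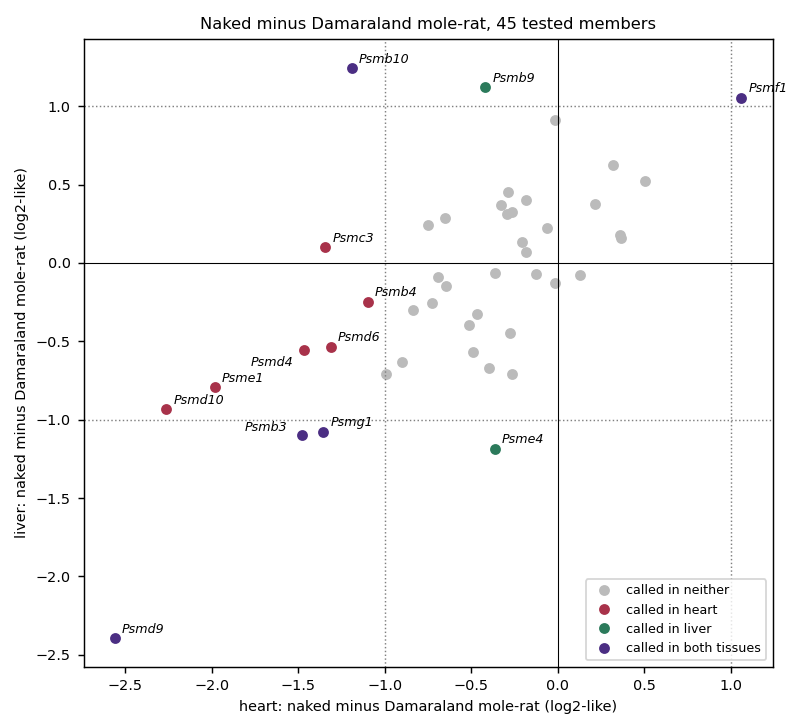
Naked minus Damaraland mole-rat difference of log2-like values in heart (horizontal axis) and liver (vertical axis) for the 45 tested members, coloured by the tissue in which they were called; dotted lines mark the size threshold of 1. Most points lie left of 0 in heart, Psmd9 is lowest in both tissues, and Psmb10 is the called member with opposite signs.

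The guinea pig and the mouse, compared in the same way, differed at 5 members in heart, beside 32.1% of all genes tested, and at 6 in liver, beside 37.2%. In heart Psmb9, Psmd4, Psmd12 and Psmg1 were higher in the guinea pig, beside 15.2% of genes, and Psme4 was lower, beside 16.9%. In liver Psmd12 was higher, beside 18.8%, and Psma4, Psmb6, Psmb10, Psme2 and Psme4 were lower, beside 18.4%. With no size threshold, 19 members passed in heart, beside 59.6% of genes, and 17 in liver, beside 58.8%. Psmd12, a lid subunit, had 11.75, 12.10 and 11.84 in guinea pig hearts beside 10.13, 10.33 and 10.28 in mice, a mean of 10.33 ± 0.60 in naked mole-rats and 10.79, 10.76, 10.78, 10.51 and 10.12 in Damaraland mole-rats. It was called higher in guinea pig heart alone, as was Psmb9, beside 6.61% of all genes called in this species alone, and 1 member, Psme4, was called in mouse heart alone, beside 10.4%. In liver guinea pig exceeded mouse at Psmd12 by 1.01 (SE 0.27, limma adjusted p = 0.00363). Psmb10 was called higher in mouse liver alone, beside 12.2% of genes, and 0 members were called in guinea pig liver alone, beside 9.38%. With an unadjusted limma p under 0.05 in each of the 3 contrasts and no size threshold, 4 members passed in guinea pig liver alone, and voom called 1. Mouse liver had 2 libraries, and without replicate 2 of them only 2 members were called between guinea pig and mouse liver.

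Genes that work with the proteasome but lie outside the naming rule gave few calls in the mole-rat and outgroup contrast. Tested were 19 partner genes, among them the maturation factor Pomp, the deubiquitinases Usp14 and Uchl5, the shuttle factors and the unfoldase Vcp. Of these, 0 were higher and 1 lower in heart (Ubqln1, a ubiquitin shuttle), and 0 were called in either direction in liver. Ubqln1 was called lower in the naked mole-rat alone, and Damaraland hearts (9.73 to 10.97) overlapped mouse hearts (10.22 to 10.31). In liver, limma gave an unadjusted p under 0.05 for 5 partner genes higher and 6 lower, and voom on the recovered reads called 0 higher and 2 lower. Of all genes tested, 10.8% were called higher and 12.6% lower in heart, and 28.1% in either direction in liver. Between the mole-rats, 0 of these 19 were higher and 6 lower in naked mole-rat heart, beside 14.2% and 15.2% of all genes, and 1 was higher and 3 lower in naked mole-rat liver, beside 16.6% and 17.6%. Pomp, which matures the core, had heart means of 9.23 ± 0.57, 9.58 ± 0.50, 11.05 ± 0.49 and 9.75 ± 0.08 and liver means of 9.53 ± 0.27, 9.61 ± 0.36, 10.59 ± 0.35 and 10.47 ± 0.41 in naked mole-rat, Damaraland mole-rat, guinea pig and mouse, with average contrasts of -0.997 (SE 0.22) in heart and -0.96 (SE 0.17) in liver that stopped short of the size threshold.

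Among 7 genes of ubiquitin supply and of the control of proteasome genes, 0 were called in either direction in heart, where 23.4% of all genes were called, and in liver 2 were higher in mole-rats, beside 15.1% of all genes, and 1 lower, beside 13.0%. In heart, limma gave an unadjusted p under 0.05 for 3 of them higher and 1 lower, and voom called 0. Uba6, an enzyme that activates ubiquitin, was the one called in both mole-rats, with liver means of 9.39 ± 0.53 in naked mole-rats, 9.43 ± 0.20 in Damaraland mole-rats, 8.28 ± 0.29 in guinea pigs and 7.77 ± 0.34 in mice. Ubb, a polyubiquitin gene, was higher by 1.34 (SE 0.15). Nfe2l1, which encodes the factor that raises proteasome gene transcription when proteasome activity falls, had liver means of 9.80 ± 0.19, 11.12 ± 0.19, 11.81 ± 0.25 and 11.91 ± 0.76, an average mole-rat difference of -1.40 (SE 0.16, limma adjusted p = 7.2e-07) and a naked minus Damaraland difference of -1.33. In heart its contrast was -0.81 (SE 0.20) and was not called.

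**Figure D5:**
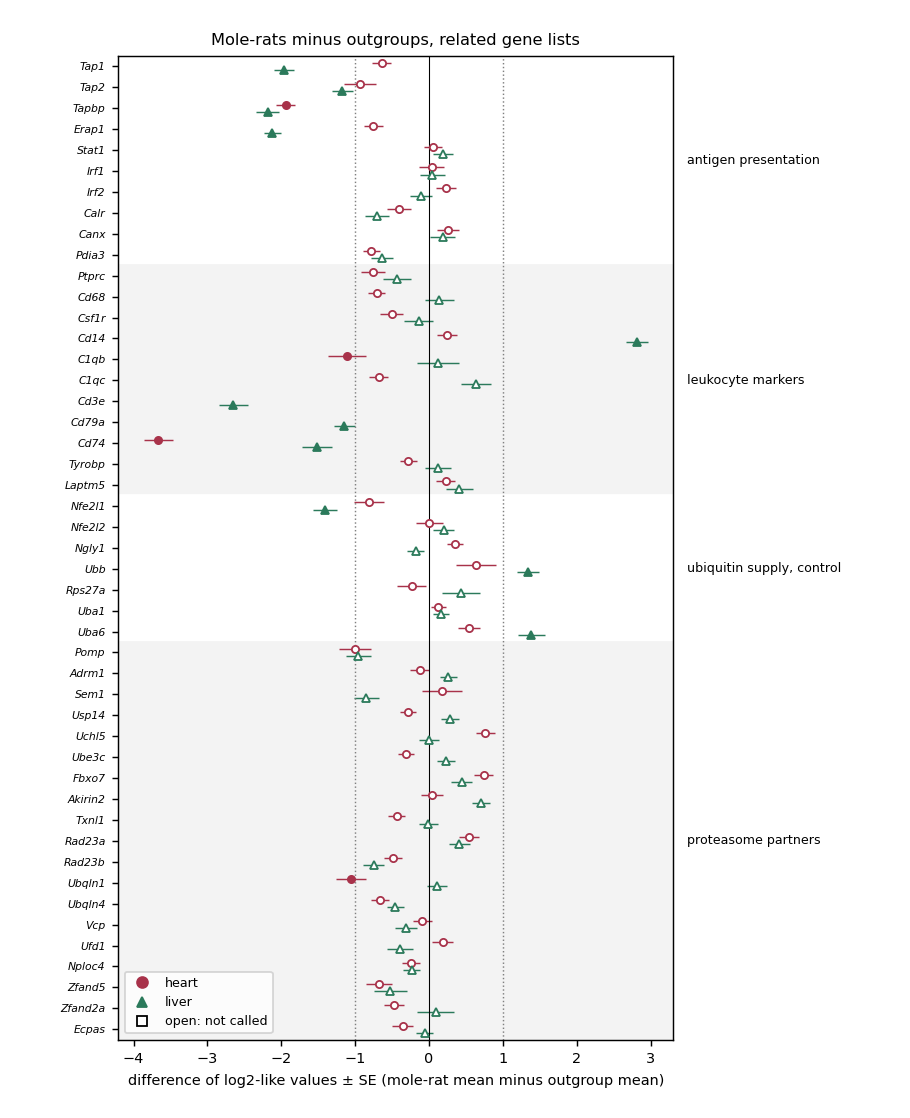
Difference between the mole-rat mean and the outgroup mean (log2-like values with standard errors; circles heart, triangles liver; filled symbols were called) for antigen presentation genes, leukocyte markers, genes of ubiquitin supply and control, and proteasome partners. Tapbp is called lower in both tissues and Tap1, Tap2 and Erap1 in liver only. Ubqln1, low in naked mole-rat heart alone, is the one partner gene called.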

How the data were processed

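The deposited tables, 1 per tissue, hold log2-like values from a variance-stabilising transformation, per the file names; the submitters' processing notes name cutadapt, Salmon 013.1, DESeq2 and GRCm38 without their roles. How genes were matched across species is not given in the sources used here. Each table lists 13928 mouse gene identifiers, and a symbol was found for 13921. Besides, 26 columns of per-sample values that match no sample here were not used. Inverting the transform and dividing by the worth of 1 read left whole numbers (within 0.01) in 100% of cases, and these reads gave depth and scaled reads. The tables were normalised separately, so tests were run within a tissue.

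Only genes whose mean over all samples reached the floor plus 1 were tested (10667 in heart, 10887 in liver). limma 3.58.1 (R 4.3.3) was fitted on the deposited log2-like values with 1 coefficient per species and a variance trend, with Benjamini-Hochberg adjustment over all genes tested. Tables and figures were made with Python 3.11.15, and the fit was tested on simulated data. The members and the gene lists were chosen with earlier results of these data known. Described in full were the immunoproteasome and catalytic genes, members called in both mole-rats, up to 3 per direction in each species alone, the 5 largest average contrasts, the chaperones, Psme3, Psme4, Psmf1 and Psmd11; other members were named for their calls after their values were seen. Among the lists, those named were called in both mole-rats or stand beside the immunoproteasome, and Pomp, Ubb, Nfe2l1 and Ubqln1 were chosen after their values were seen. Alternatives covered the size threshold, the filter, centring, quantile normalisation, the variance model, voom on recovered reads, a block for the replicate number and the omission of each library in turn.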

Additional observations from a re-analysis of the deposited data

Results flagged for a closer look

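Within groups of 4 or 5 libraries, 7 of 135 tests of a member found 1 library farther from its group than Dixon's 95% value allows; chance gives about 1 in 20. Replicate 5 of Damaraland mole-rat liver was low for Psmd3 (10.36, the others 10.85 to 11.05), Psmb6 (10.27, the others 10.79 to 10.92), Psmc4 (9.49, the others 9.96 to 10.08) and Psma3 (10.14, the others 10.59 to 10.75). Replicate 4 of naked mole-rat liver was high for Psmd4 (9.96, the others 9.47 to 9.53) and for Psmd5 (9.93, the others 9.45 to 9.51). Replicate 2 of naked mole-rat liver was high for Psmg1 (8.24, the others 7.69 to 7.77).

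Over the 6 pairs of species, and mole-rats against outgroups, 11 differences are given here: in each, the libraries separated fully in one direction in heart and in the other in liver; the difference between the tissues was not tested, since the tables were normalised separately. Psmb10, naked minus Damaraland mole-rat, was -1.19 in heart and 1.24 in liver. The other 10 were differences from the mouse, with 2 libraries of mouse liver. Guinea pig minus mouse was 0.34 in heart and -0.18 in liver for Psma5, -0.48 and 0.58 for Psmb2, 0.46 and -0.87 for Psmc4, 0.50 and -0.67 for Psmd10, and 0.39 and -0.27 for Psmd6. Damaraland mole-rat minus mouse was 1.05 in heart and -0.35 in liver for Psma7, 0.73 and -0.23 for Psmd13, and -1.42 and 0.45 for Psme4. Naked mole-rat minus mouse was 0.34 and -0.49 for Psmg1 and -0.36 and 0.36 for Psmc3ip. Of these values, those of Psmb10 in both tissues and those of Psma7 and Psme4 in heart were called.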

How the results depend on the processing

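The counts of members called are given in this order: average contrast, calls shared by the mole-rats, naked against Damaraland, the naked and then the Damaraland mole-rat alone, guinea pig against mouse. With no size threshold they were 27, 7, 23, 10, 7 and 19 in heart and 21, 2, 23, 7, 5 and 17 in liver, in place of 3, 1, 11, 3, 3 and 5 in heart and 3, 1, 7, 2, 2 and 6 in liver. Under voom, fitted to recovered reads, heart gave 7 members in the average contrast, 6 for the naked mole-rat alone (Psmg2, Psmd8 and Psme2 added, all lower) and 14 for guinea pig against mouse, and the liver counts were 2 for both mole-rats (Psmb9 added) and 1 for the naked mole-rat alone. Quantile normalisation left 2 members between guinea pig and mouse liver. Leaving out each library in turn gave 3 to 6, 1 to 1, 9 to 12, 3 to 4, 2 to 3 and 4 to 5 in heart and 2 to 3, 0 to 2, 6 to 8, 1 to 2, 1 to 2 and 2 to 7 in liver. The average contrast in heart rose to 6 without replicate 3 of the naked mole-rat, the shallowest library. In liver, the count in both mole-rats was 2 without replicate 2 and 0 without replicate 3 of the naked mole-rat. The cause of these shifts was not tested.

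The replicate numbers do not pair the samples: libraries of different species with the same number had correlations of their deviations from the group means of -0.261 to 0.301 in heart (18 pairs) and -0.232 to 0.15 in liver (16 pairs). With the replicate number as a block, the average contrast in heart gave 5 members, and the heart difference of Psmf1 between the mole-rats was 0.86 and not called.

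The called average and naked minus Damaraland differences of members, 14 in heart and 10 in liver, kept their sign under every alternative run; other printed differences were not recomputed singly. Psmb10 in both mole-rats was called under 21 of 21 settings in heart and 20 of 21 in liver, and Psmd9 in the naked mole-rat alone under 21 of 21 in each tissue. Calls near the size threshold ended for Psmf1 with voom (0.94 in heart, 0.86 in liver), for Psmb4 in heart with quantile normalisation (-0.98) and for the liver average contrast of Psmd9 with quantile normalisation (-0.997) and without 1 of 4 single libraries (-0.967 to -0.999). Depth limits rare members most, since a 2-fold change from 10 reads moves the value by 0.282 in heart and 0.392 in liver. Leaving out a mouse liver leaves 1 library, assumed to vary like the others.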
